A study of Homo sapiens with 6 samples.

Results

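Head-to-head gene pairs are neighbouring genes on opposite strands whose starts lie close together and whose transcription runs apart. Pairs were taken as 2 protein-coding genes of GENCODE release 44 on hg19 with starts at most 1000 bp apart and the start of the minus-strand gene at the lower coordinate, so that the genes do not overlap. By this rule 884 pairs were found. They hold 1705 of 20176 coding genes and fall into 822 loci, because some genes belong to several pairs and 79 pairs include a readthrough record, a gene model that joins neighbouring genes. R-loops had been mapped by spKAS-seq, strand-specific sequencing of single-stranded DNA labelled by N3-kethoxal, in HEK293T cells, a human embryonic kidney line. The cells were wild-type and either untreated or given 10 μM N2-heptynyl-dG for 3 h, and both kinds of culture were then labelled with 5 mM N3-kethoxal for 10 min. There were 2 samples per condition and 2 inputs. The lists used here, 1 per condition, state where each R-loop peak lies and on which strand, without a height or a p-value. No spread between replicates can therefore be stated, the depth behind a peak is unknown, and no difference between the conditions was tested. The lists carry no expression, so the cell line could not be checked against marker genes.

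An R-loop is a stretch of RNA paired with its template DNA strand, which leaves the other strand single. Such structures commonly form just after the start of a transcribed gene, where G-rich RNA favours pairing with C-rich template. At a head-to-head pair, 1 short promoter lies between genes that are read in opposite directions, so an R-loop can form on either side, on both or on neither. Many human genes for DNA repair, histones, mitochondrial proteins and ribosomal proteins are arranged in this way. N2-heptynyl-dG is a nucleoside with an alkyl group on the N2 position of guanine, which cells take up and place in their DNA.

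The sequences between the starts of 7 pairs are shown. They were taken in order from the pairs named by rule, textbook pairs first, with starts 30 to 300 bp apart. Among them are pairs with peaks on both sides, on 1 side or on none. Each is the plus strand of hg19, with the start of the minus-strand gene just before its first base and that of the plus-strand gene just after its last. Capitals mark CCAAT or its reverse complement ATTGG, and TATAAA. The letters searched on both strands also included CCGGAAGT, the core bound by ETS factors, and GCATGCGC, from the binding site of NRF1, and neither occurs in these segments.
TK1/AFMID, chr17:76183315-76183438, both sides in both lists: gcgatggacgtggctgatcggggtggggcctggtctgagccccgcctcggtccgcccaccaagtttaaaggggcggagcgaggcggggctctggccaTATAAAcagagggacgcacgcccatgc
H2AC25/H2BC26, chr1:228645575-228645803, both sides in both lists: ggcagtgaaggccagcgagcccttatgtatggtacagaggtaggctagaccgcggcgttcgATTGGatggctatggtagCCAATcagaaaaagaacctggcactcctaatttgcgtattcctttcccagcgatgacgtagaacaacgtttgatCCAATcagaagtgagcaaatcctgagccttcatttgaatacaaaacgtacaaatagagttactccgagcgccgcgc
PPAT/PAICS, chr4:57301782-57301906, PAICS side in both lists: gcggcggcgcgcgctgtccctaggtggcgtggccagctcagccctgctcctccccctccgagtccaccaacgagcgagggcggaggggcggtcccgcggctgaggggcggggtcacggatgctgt
POLR3K/SNRNP25, chr16:103609-103827, POLR3K side in both lists: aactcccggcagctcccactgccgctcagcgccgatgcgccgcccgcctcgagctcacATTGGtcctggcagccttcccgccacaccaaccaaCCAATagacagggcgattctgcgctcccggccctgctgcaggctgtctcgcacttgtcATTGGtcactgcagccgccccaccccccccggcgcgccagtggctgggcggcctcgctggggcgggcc
SIRT3/PSMD13, chr11:236932-236965, SIRT3 side in the treated list: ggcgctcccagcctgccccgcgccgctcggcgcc
SARS2/MRPS12, chr19:39421404-39421583, no side in either list: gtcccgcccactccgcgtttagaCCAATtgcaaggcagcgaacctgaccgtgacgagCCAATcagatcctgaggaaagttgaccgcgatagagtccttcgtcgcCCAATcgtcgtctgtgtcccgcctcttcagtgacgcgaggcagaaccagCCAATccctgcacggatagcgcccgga
TMEM258/FEN1, chr11:61560275-61560382, no side in either list: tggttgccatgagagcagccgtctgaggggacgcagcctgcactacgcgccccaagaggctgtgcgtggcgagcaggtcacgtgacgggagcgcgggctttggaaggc
CCAAT letters occur 4 times in the segment of SARS2/MRPS12, which held no peak, and 3 times in those of POLR3K/SNRNP25, with 1 side held, and H2AC25/H2BC26, with both. GC content ran from 48.9% between the histone genes to 88.2% in the 34 bases between SIRT3 and PSMD13.

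A side of a pair was counted as held when a peak on the strand of its gene had its midpoint within 1000 bp of either start. Where a pair held a peak, it was mostly on 1 strand. Over the whole lists, only 48 of 5098 untreated and 67 of 5510 treated minus-strand peaks overlapped a plus-strand peak. Whether peak calling keeps the strands apart, and what part this has in one-sided states, was not tested. In the untreated list 75 of 884 pairs (8.48%, 95% Wilson interval 6.82 to 10.5) were two-sided, 319 (36.1%, 33.0 to 39.3) one-sided and 490 (55.4%, 52.1 to 58.7) had no peak. In the treated list 76 (8.60%, 6.92 to 10.6) were two-sided, 336 (38.0%, 34.9 to 41.3) one-sided and 472 (53.4%, 50.1 to 56.7) had none. One-sided pairs held the minus-strand gene in 149 and the plus-strand gene in 170 pairs untreated, and in 154 and 182 treated. The intervals cover counting error over pairs only, and pairs are not replicates of a condition. A pair without a listed peak may still carry signal, since the lists do not give the level at sites that were not called.

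Starts of pairs held peaks more often than other coding starts. A same-strand peak lay within 1000 bp of 26.3% (24.3 to 28.5) of the 1705 starts in pairs in the untreated list and of 27.4% (25.4 to 29.6) in the treated list, where the share over all 20176 coding starts was 15.6% and 17.4%. Starts with no divergent coding or lncRNA start within 1000 bp had 13.8% and 15.5%. The 1413 coding starts with a divergent lncRNA in place of a coding gene had 24.3% (22.1 to 26.6) and 27.7% (25.5 to 30.1), so the intervals of these 2 classes overlapped in both lists. A peak on the opposite strand lay at 25.8% and 26.9% of pair starts, 19.7% and 21.4% of the lncRNA class and 10.5% and 11.4% of all coding starts. Peaks of both strands lay at 8.15% and 8.33% of pair starts, 6.09% and 7.08% of the lncRNA class and 2.69% and 3.08% of all coding starts. At a pair start, an opposite-strand peak can be the same-strand peak of the partner gene. The opposite-strand and both-strand shares of pair starts therefore count many of the same peaks again and are no separate result. Counting only peaks of at least 750 bp, the gap between pair starts and all coding starts outside pairs narrowed from 11.8 to 2.97 percentage points untreated and from 11.0 to 2.10 treated. Peaks at pairs were narrow, 62.8% of 438 untreated and 62.6% of 457 treated peaks being 500 bp wide, against 41.1% and 42.5% of all peaks. All peaks include those away from coding starts. Of coding starts outside pairs, 14.6% untreated and 16.5% treated held a same-strand peak of any width. A peak of at least 750 bp lay at 6.94% and 8.22% of them, and at 9.91% and 10.3% of pair starts.

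**Figure D1:**
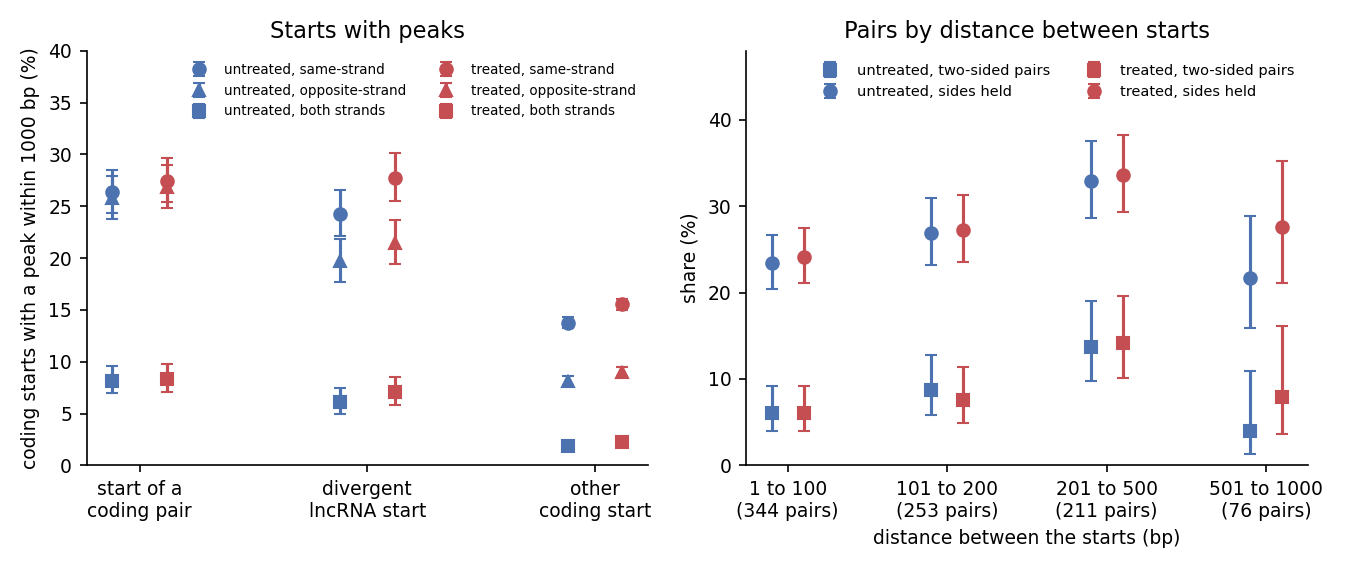
Left, share of coding starts with a same-strand peak, an opposite-strand peak or peaks of both strands within 1000 bp, for starts in coding pairs, starts facing a divergent lncRNA and other coding starts. Right, share of two-sided pairs and of held sides by distance between the starts, with bars for 95% Wilson intervals throughout. Pair starts lie near 26% and 27% for the same strand, the other coding starts at 13.8% and 15.5%, and two-sided pairs have their highest share at 201 to 500 bp.

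The plus side was held somewhat more often where the minus side was held. The plus side was held in 75 of the 224 pairs with the minus side held (33.5%, 27.6 to 39.9) and in 170 of the 660 others (25.8%, 22.6 to 29.2). In the treated list these shares were 76 of 230 (33.0%, 27.3 to 39.4) and 182 of 654 (27.8%, 24.5 to 31.4). The difference was 7.72 points (95% normal interval over pairs 0.701 to 14.8) untreated and 5.21 points (-1.77 to 12.2) treated, so the interval lay above 0 in the untreated list only. With midpoints within 500 bp it reached below 0 there too (4.17 points, -2.69 to 11.0).

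Most pairs were in the same state in both lists. State and side were the same at 702 pairs (79.4%), of which 416 had no peak, 238 were one-sided and 48 two-sided. The treated list held more sides at 98 pairs (11.1%) and fewer at 80 (9.05%). Of pairs without a peak in the untreated list, 70 became one-sided and 4 two-sided, while 53 one-sided and 3 two-sided pairs had none in the treated list. A one-sided pair seldom changed side, which happened at 4 of 242 pairs that were one-sided in both lists. These 4, named after their values were seen, went from NME7 to BLZF1, from FAM118B to RPUSD4, a mitochondrial pseudouridine synthase gene, from ZNF302 to SCGB2B2 and from ACOT8, a peroxisomal thioesterase gene, to ZSWIM3. At NME7/BLZF1 the untreated minus-strand peak ended at chr1:169336713-169337212 and the treated plus-strand peak began at the next base, chr1:169337213-169337712. Of the 75 pairs two-sided in the untreated list 48 (64.0%, 52.7 to 73.9) were two-sided in the treated list, and of the 319 one-sided 242 (75.9%, 70.9 to 80.2) were one-sided, with overlapping intervals. Counted by side, 382 of 1768 were held in both lists, 106 in the treated list only and 87 in the untreated list only. The treated list was also the longer as a whole, with 11085 peaks against 10231. Peaks at pairs made up 4.28% (3.91 to 4.69) of the untreated and 4.12% (3.77 to 4.51) of the treated list.

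**Figure D2:**
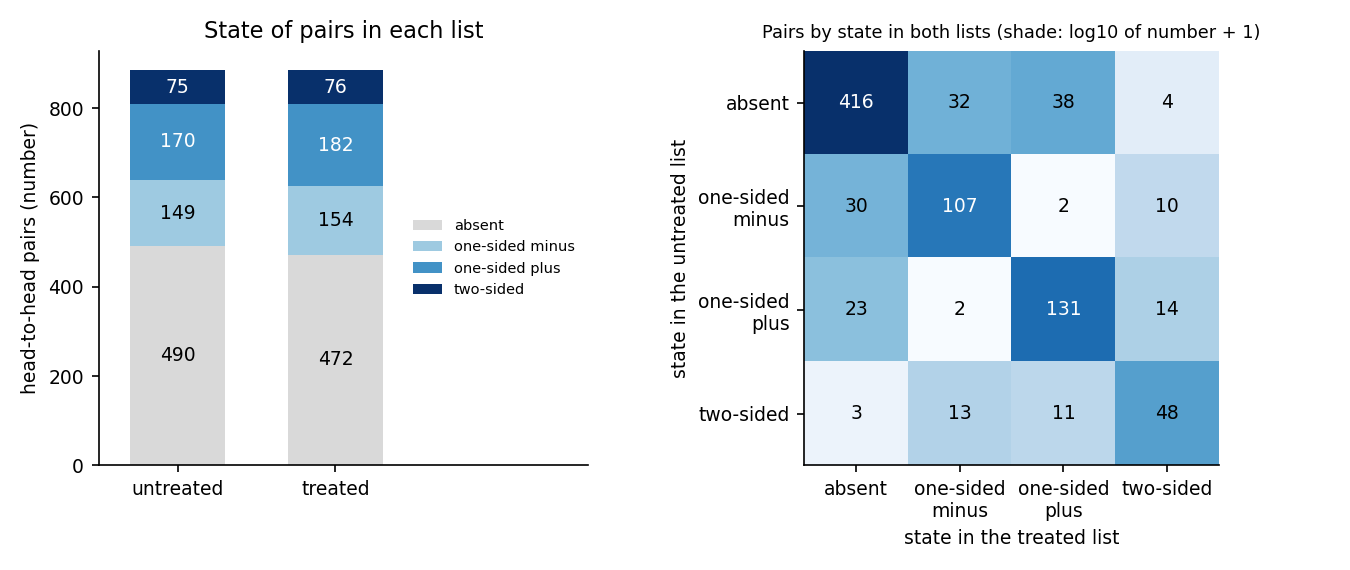
Left, number of pairs in each state in the untreated and treated lists. Right, pairs by their state in the untreated list (rows) and the treated list (columns), with shade on a log scale. The diagonal holds 702 of 884 pairs, and 4 pairs moved from 1 strand to the other.

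On chromosome 11 the number of pairs with any side held went from 29 to 40 of 71, on chromosome 2 from 22 to 30 of 57 and on chromosome 7 from 10 to 17 of 32, while on chromosome 1 it went from 46 to 43 of 77 and on chromosomes 12, 14, 16 and 19 it was lower by 3 each. Chromosome 3 held a side at 30 and 29 of 47 pairs and chromosome 17 at 14 and 17 of 58. These counts have no replicate, no unevenness was tested, and gene copy number in the cell line was not analysed here.

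Narrow peaks changed most. Of sides whose widest untreated peak was 500 bp, 219 of 293 (74.7%) were also held in the treated list, while 97 of 104 (93.3%) of those at 750 bp and 66 of 72 (91.7%) of those of at least 1000 bp were. From the treated list, the shares also held untreated were 212 of 303 (70.0%), 114 of 128 (89.1%) and 56 of 57 (98.2%). Among coding starts held in the treated list, the untreated list lacked 21.6% (18.1 to 25.5) of pair starts and 27.9% (26.3 to 29.7) of starts outside both divergent classes. In the other direction the shares were 18.3% (15.0 to 22.1) and 18.8% (17.3 to 20.4). As a share of all starts, a same-strand peak was in the treated list only at 5.92% of pair starts against 4.72% of all coding starts, and in the untreated list only at 4.81% against 2.9%.

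Peak midpoints sat just inside the gene of their strand, while upstream edges lay at a median of -115 bp, before the start, in both lists. The midpoint lay a median of 183 bp (quartiles 86 and 309) downstream of the start of that gene in the untreated list and 174 bp (80 and 308) in the treated list. At 85.8% and 87.2% of 471 and 491 placements, a peak being counted at each pair it belongs to, it was inside that gene, at 10.4% and 8.76% between the starts and at 3.82% and 4.07% inside the partner gene. Peaks were broad relative to the promoter, covering the start of their own gene at 71.3% and 73.5% of placements and the start of the partner at 32.3% and 33.6%. Around coding starts outside both divergent classes the median was 204 and 202 bp.

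**Figure D3:**
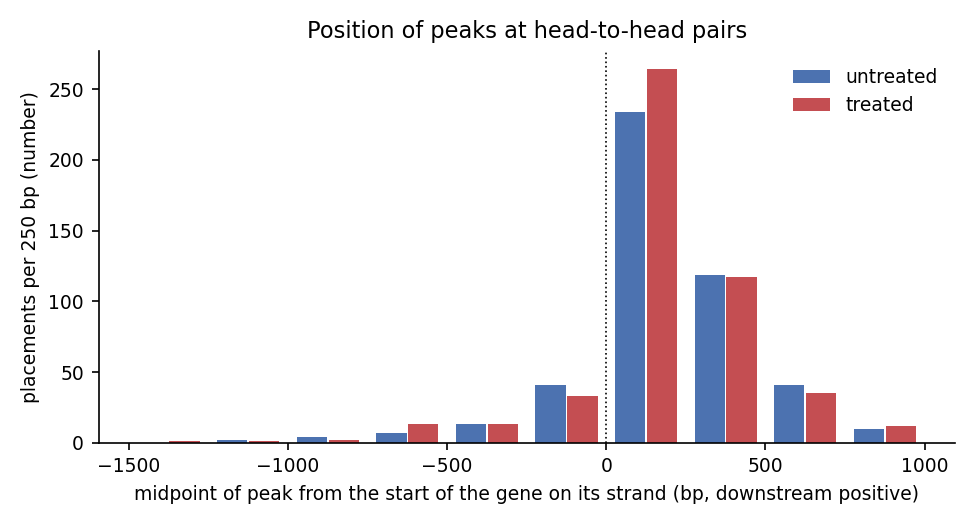
Number of placements (a peak counted at each pair it belongs to) per 250 bp of distance from the start of the gene on the strand of the peak, with positive values downstream. The bin from the start to 249 bp downstream holds 234 untreated and 264 treated placements, the most of any bin.

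At two-sided pairs the peaks pointed away from each other. In all 75 untreated and all 76 treated pairs the midpoint of the plus-strand peak lay above that of the minus-strand peak, with a median separation of 625 bp and a range of 250 to 1500 bp. At 50 pairs of each list the 2 peaks met at a shared border with neither gap nor overlap, at 6 and 5 pairs they overlapped by at most 250 bp, and at 19 and 21 pairs a gap remained. The shared border fell between the starts at 23 of 50 pairs untreated and 25 of 50 treated. Apart from 6 untreated and 3 treated peaks, all widths in the lists are multiples of 250 bp, which sets how finely a border can be placed. Over the whole lists, 48 of 5098 untreated and 67 of 5510 treated minus-strand peaks overlapped a plus-strand peak, and whether peak calling keeps the strands apart was not tested.

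The distance between the starts had a median of 131 bp (quartiles 69 and 246.5), with 715 pairs at 300 bp or less. Two-sided pairs made up 6.11% of the 344 pairs at 1 to 100 bp in both lists, 8.70% untreated and 7.51% treated of the 253 at 101 to 200 bp, 13.7% and 14.2% of the 211 at 201 to 500 bp, and 3.95% and 7.89% of the 76 at 501 to 1000 bp. The interval at 201 to 500 bp (9.74 to 19.0 untreated, 10.1 to 19.6 treated) lay above that at 1 to 100 bp (4.03 to 9.15 in both lists). Without the histone pairs, the share at 201 to 500 bp was 11.4% (7.75 to 16.6) in each list and the intervals overlapped. Just inside the limit of 1000 bp were MS4A6A/MS4A4A at 991 bp, with no peak, and PSMB1/TBP at 995 bp, two-sided and then one-sided on PSMB1, a proteasome subunit gene. Just outside it was TXNDC12/BTF3L4 at 1008 bp.

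Replication-dependent histone genes had the highest share of two-sided pairs among the 8 functional lists. Of 12 histone pairs, 6 were two-sided, 4 one-sided and 2 without a peak in the untreated list, and 7, 2 and 3 in the treated list, where all 884 pairs had 8.48% and 8.60% two-sided. H2AC25/H2BC26 held a minus-strand peak of 1000 bp at chr1:228644761-228645760 and a plus-strand peak of 1500 bp at chr1:228645761-228647260, identical in both lists and meeting between the starts. H2BC11/H2AC11 kept 2 peaks of 1250 bp at the same positions, with a gap of 250 bp. At H2AC17/H2BC17 the plus-strand peak was unchanged, and the minus-strand peak of 1250 bp lay 250 bp farther from H2BC17 in the treated list. H2BC12/H2AC12, H3C12/H2BC17 and H2BC4/H2AC6 were two-sided in both lists as well, the last 2 named after their values were seen. H3C12/H2BC17 and H2AC17/H2BC17 share H2BC17 and rest on the same peaks, so these counts hold 1 locus under 2 pairs. H2BC21/H2AC20 gained a peak of 500 bp on H2AC20, and H3C7/H2BC9, with starts 979 bp apart, lost a peak of 1750 bp on H3C7. Histone genes are near-identical copies. The methods give Bowtie2 in its default setting for alignment, and how many reads at these genes matched several copies was not analysed here.

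At the listed pairs with a gene for a protein of the cytosolic ribosome, each peak was on the ribosomal side. The functional list gave 11 pairs, whose ribosomal genes all have RPL or RPS names. FAU/MRPL49 was counted with the mitochondrial ribosome only. Of the 11, 7 were one-sided and 4 had no peak, in both lists, and 0 were two-sided. All pairs had 36.1% and 38.0% one-sided and 8.48% and 8.60% two-sided. All 7 held sides were on the strand of the ribosomal protein gene, and the partner gene had a peak at 0 of 11 pairs. Over all pairs, 469 of 1768 sides were held untreated and 488 treated. With so few pairs, no difference from these shares was tested. BTK/RPL36A held a plus-strand peak of 1250 bp on RPL36A in both lists, with none on BTK, a kinase gene of B cells. RPL12/LRSAM1 held a minus-strand peak of 1000 bp on RPL12 in both lists. VPS52/RPS18 and RPL9/LIAS were likewise held on RPS18 and RPL9 alone. No pair of this list changed state between the lists.

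Of 26 pairs with a splicing or RNA-processing gene, 16 were one-sided, 0 two-sided and 10 without a peak in each list, and 2 gained and 2 lost a side. Any side was held at 61.5% of them in each list, against 44.6% and 46.6% of all pairs, and this difference was not tested. COG4/SF3B3 held the side of SF3B3, a subunit of the U2 snRNP, and SRSF7/GEMIN6 that of SRSF7, a serine- and arginine-rich splicing factor. HNRNPUL2/TTC9C was held on TTC9C and SF3B6/FAM228B on SF3B6. The splicing gene itself was held at 10 of 26 pairs and its partner at 6, in each list. Over all pairs, 469 of 1768 sides were held untreated and 488 treated. The contrast between gene and partner was not tested.

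DNA repair genes, the largest list, were close to the pairs as a whole. Of 61 pairs, 7 were two-sided, 22 one-sided and 32 without a peak in the untreated list (any side 47.5%, against 44.6% of all pairs), and 8, 24 and 29 in the treated list (52.5% against 46.6%). In the treated list 10 pairs held more sides, 6 fewer and 45 the same number. Over all 884 pairs, 98 (11.1%) held more and 80 (9.05%) fewer, and no difference from these shares was tested. IGBP1C/RAD51C and TEX14/RAD51C, both among the 10, rest on the same RAD51C peak, so this gain is counted more than once. FANCB/MOSPD2, with a subunit of the Fanconi anaemia core complex, NPAT/ATM, TIPIN/MAP2K1, with a fork protection factor, and APTX/DNAJA1, with the single-strand break repair factor aprataxin, were two-sided in both lists. Sides were gained on PRKDC, described below, and among others on RAD51C and GTF2H1 and on the partners of WRN, PMS2, CETN2 and DCLRE1A. RAD52/ERC1 gained a peak on the strand of RAD52 that did not reach the RAD52 start. Its midpoint lay at -532 bp from that start, inside ERC1. Sides were lost on PCNA, MRE11, RECQL, RAD51AP1 and XPO5, the partner of POLH, and on OSGEP, the partner of APEX1. These genes, PRKDC aside, were chosen after their values were seen.

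Any side was held at 44.6% of all pairs untreated and 46.6% treated, and at 47.4% in each list of the 19 pairs with a mitochondrial ribosome gene, of which 1 and then 0 were two-sided. TCP1/MRPL18 lost its MRPL18 side, and FAU/MRPL49, MRPL46/MRPS11 and POLR1A/PTCD3 were held on FAU, MRPS11 and PTCD3 in both lists. Of 21 pairs with a respiratory chain gene, 10 and 9 held a side (47.6% and 42.9%). TIMM8B/SDHD was held by peaks on the strand of SDHD, a subunit of complex II. Their midpoints lay at -318 bp untreated and -568 bp treated from the SDHD start, inside TIMM8B. The treated peak did not reach the SDHD start. NDUFA11/VMAC was held on NDUFA11, and LRRC41/UQCRH was held on UQCRH untreated and on both sides treated. NDUFA11 is also paired with another gene record on the same peak, so this held side is counted more than once. The proteasome and tRNA synthetase lists were too short to set against these shares, with 3 and 4 of 7 and with 0 and 1 of 3 pairs holding a side.

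Of 22 textbook divergent pairs looked for, 9 met the distance and strand criteria, of which 8 are described. TK1/AFMID, thymidine kinase 1 beside arylformamidase, had a minus-strand peak at chr17:76182681-76183180 and a plus-strand peak at chr17:76183431-76183930 in both lists, so that the peaks left most of the printed segment uncovered. NPAT/ATM joins a coactivator of histone genes to the kinase of the double-strand break response. Its NPAT peak of 750 bp was the same in both lists, and its ATM peak was 500 bp untreated and 750 bp treated, where it overlapped the NPAT peak by 250 bp. At PPAT/PAICS, which encodes 2 enzymes of purine synthesis, the PAICS side alone was held, by a peak of 1500 bp untreated and 750 bp treated. At POLR3K/SNRNP25 the side of POLR3K, a subunit of RNA polymerase III, was held by a peak of 500 bp untreated and 750 bp treated.

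Other textbook pairs held a side in the treated list alone. At PRKDC/MCM4, the catalytic subunit of DNA-dependent protein kinase beside a subunit of the replicative helicase, a minus-strand peak of 1000 bp covered both starts, which are 7 bp apart. At SIRT3/PSMD13 a peak of 500 bp had its midpoint 680 bp inside SIRT3, a mitochondrial deacetylase gene. SARS2/MRPS12, both of the mitochondrial translation system, and TMEM258/FEN1, with the flap endonuclease gene, had no peak in either list.

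**Figure D4:**
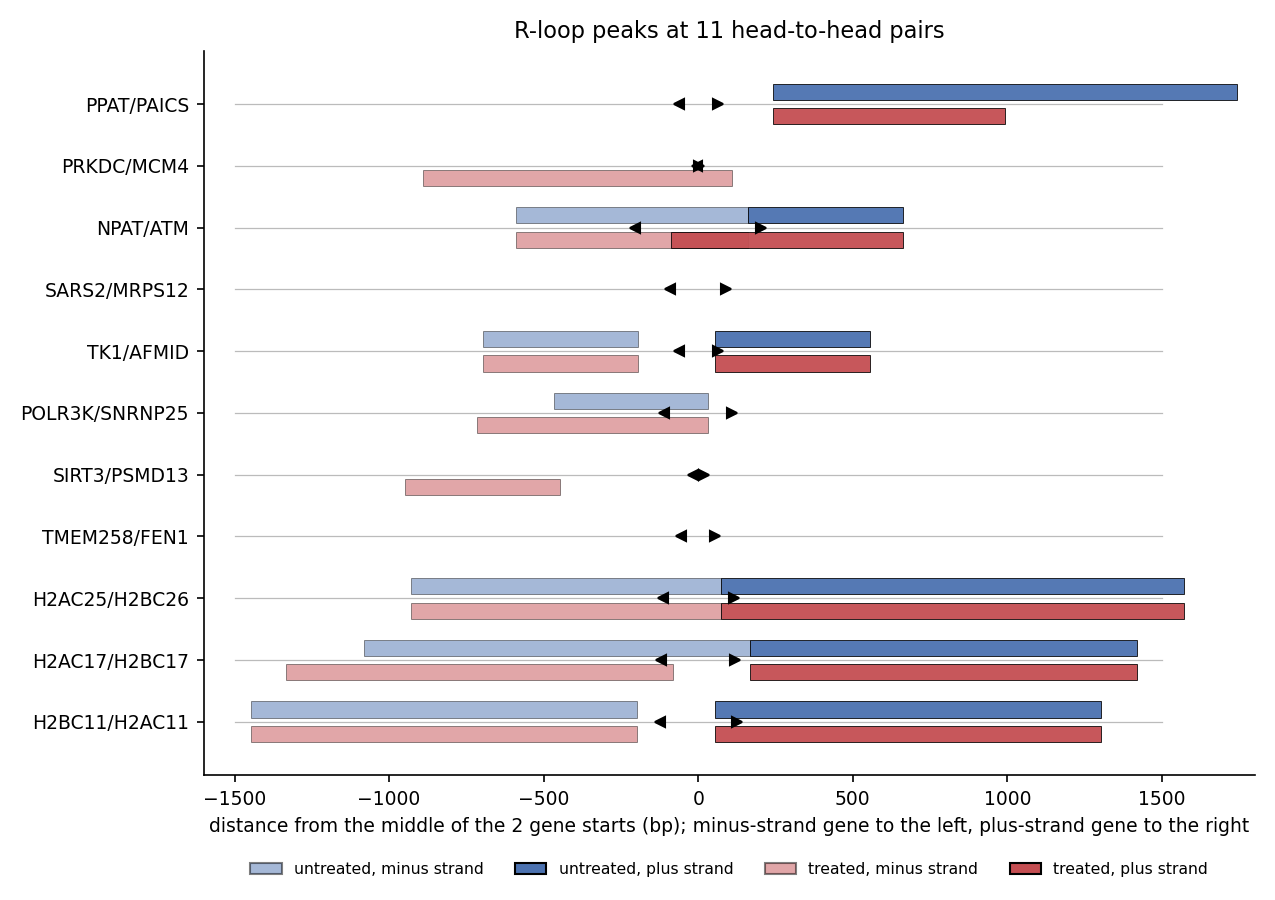
Peaks at 8 textbook pairs and the 3 histone pairs with the widest two-sided peaks, drawn by distance in bp from the middle of the starts. Upper bars are untreated and lower bars treated, pale for the minus strand and dark for the plus strand, and arrowheads mark the gene starts. Both sides are covered at NPAT/ATM, TK1/AFMID and the histone pairs, and no bar appears at SARS2/MRPS12 or TMEM258/FEN1.

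The changes of state with the widest peaks were mostly of single peaks of 500 to 1000 bp. From no peak to both sides went CHMP1A/SPATA33, with the gene of a membrane scission factor and starts 2 bp apart, through 2 peaks of 500 bp, and XNDC1N/RNF121, counted a second time through a readthrough record, through peaks of 750 and 500 bp. The remaining pair of this kind, named after its values were seen, was CSNK1A1/ARHGEF37, with the gene of casein kinase 1 alpha, through 2 peaks of 500 bp. CCDC87/CCS gained a peak of 750 bp on CCS, the copper chaperone of superoxide dismutase, and ZNF598/NPW 1 of 750 bp on NPW, the neuropeptide W gene. LPXN/ZFP91 gained a peak of 500 bp on ZFP91, beside a minus-strand peak of 1750 bp untreated and 1500 bp treated. In the other direction, FUBP1/DNAJB4 lost peaks of 500 and 1000 bp and ATG2B/GSKIP, with an autophagy gene, lost 2 of 500 bp. FUBP1/GIPC2 rests on the same peaks as FUBP1/DNAJB4, so this loss is counted more than once. XPO5/POLH lost XPO5, the exporter of precursor miRNAs, and kept a peak of 1000 bp on POLH, the translesion polymerase eta. GIN1/PPIP5K2 lost PPIP5K2 and kept GIN1, and SESN1/CEP57L1 lost SESN1, a stress-response gene, and kept CEP57L1. DCDC1/DNAJC24 and NUDCD2/HMMR each lost a peak of 750 bp on DNAJC24 and on HMMR.

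Base composition was taken over 500 bp downstream of each start on the strand of its gene. GC skew, the excess of G over C divided by their sum, is positive where the non-template strand is rich in G. Sides held in both lists had a lower skew than sides held in neither. The median was 0.0381 (quartiles -0.0377 and 0.0962) over the 382 sides held in both lists, 0.0614 over the 106 in the treated list only, 0.0974 over the 87 in the untreated list only and 0.0874 (0.0116 and 0.161) over the 1191 in neither. Median GC content was 59.0%, 60.6%, 57.6% and 61.8% in the same order. Coding starts outside pairs differed less in skew, with 0.0247 over 2189 starts held in both lists and 0.0468 over 14898 held in neither.

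The same order was found within pairs, where the 2 sides share a promoter. At the 238 pairs one-sided on the same strand in both lists, the held side had the higher skew in 77 (32.4%, 26.7 to 38.5), with medians of 0.0369 on the held and 0.0915 on the other side. The minus strand gave 34 of 107 and the plus strand 43 of 131. With 1 pair per locus it was 71 of 222. Runs of 3 or more G were more frequent on the held side in 95 and less frequent in 128 pairs, GC content was higher in 120 and lower in 117, and the held gene was the longer in 117 and the shorter in 121. At pairs one-sided in the treated list and without a peak in the untreated list, the held side had the higher skew in 27 of 70. At pairs one-sided in the untreated list and without a peak in the treated list, it had the higher skew in 27 of 53. POLR3K, the held side of its pair, had a skew of -0.146 and SNRNP25 0.229, and PAICS had -0.019 and PPAT 0.0821. CCS went the other way, with 0.279 on the gained side and -0.0494 on CCDC87. Skew was above 0 on both sides in 18 of 48 pairs two-sided in both lists and in 240 of 415 pairs without a peak in either.

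**Figure D5:**
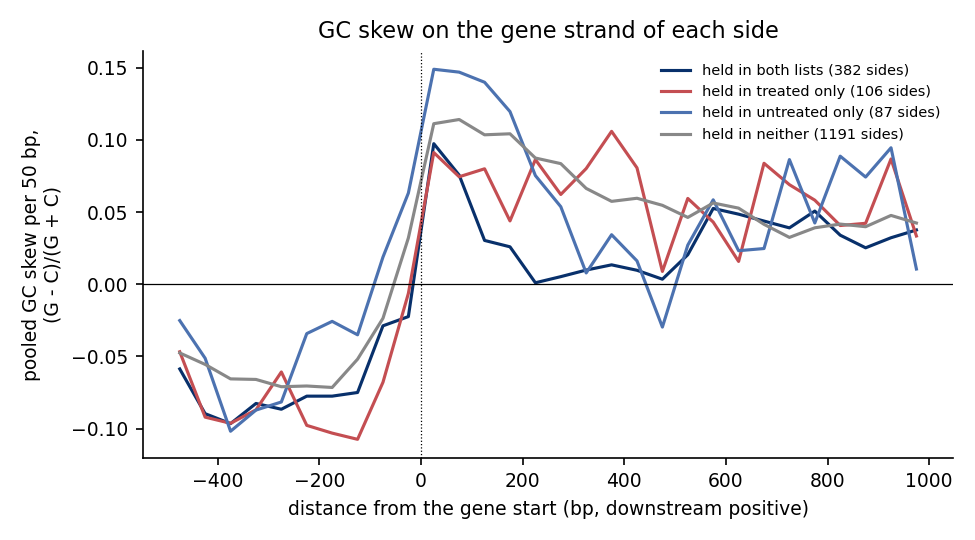
GC skew pooled over 50-bp steps, from 500 bp before to 1000 bp after the start on the strand of each gene, for sides held in both lists, in 1 list or in neither. The line of the 382 sides held in both lists runs below that of the 1191 sides held in neither over the 500 bp after the start.

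The ETS and NRF1 letters were more frequent at starts of pairs than at coding starts as a whole. In the 300 bp from 250 before to 50 after each start, on both strands, CCGGAAGT occurred at 14.2% of pair starts and 5.06% of all coding starts, and GCATGCGC, which overlaps its own reverse complement in the full site, at 8.81% and 3.77%. CCAAT occurred at 40.3% and 35.8%, and TATAAA at 4.99% and 10.9%. Windows of close starts overlap, so 1 match can count for both genes. Starts of pairs held in both lists had CCAAT at 47.4% (42.4 to 52.5) and those held in neither at 38.0% (35.2 to 40.8). The shares for CCGGAAGT were 13.1% and 13.5% and for GCATGCGC 8.72% and 8.93%, and TATAAA occurred at 22 of 367 and 52 of 1153 of these starts.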

How the data were processed

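HEK293T cells were profiled by spKAS-seq in 2 samples per condition, with 2 inputs. Per the study's methods, the authors mapped Trim Galore-processed reads to hg19 using Bowtie2, used Picard to drop duplicates, and called R-loops following an earlier protocol. The methods name 2 replicates for this step, and the files themselves do not say whether a list stands for 1 sample or for both. The deposited lists hold 4 columns, chromosome, start, end and strand, in genome coordinates, with no counts or scores. Each condition has 1 such list, filed under its first sample and taken here as the list of the condition, and the second samples and inputs were not analysed here.

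Peaks (10231 untreated, 11085 treated, none on chromosome M) were placed by midpoint on GENCODE release 44 mapped to hg19, whose gene records gave the starts. Sequence came from the GRCh37 primary assembly, the same build. The lncRNA class holds coding starts with a divergent lncRNA start within 1000 bp and no coding partner. Base composition left out the pair on chromosome M. Shares carry 95% Wilson intervals. Neither a test between conditions nor an enrichment test was made. Finding of pairs and states was tested on simulated data, where 300 of 300 planted pairs were recovered with their state.

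Pairs were named by rule: textbook pairs, the 3 pairs with the widest summed peaks for each change of state and for two-sided in both lists, and up to 4 pairs per functional list in order of summed width. One textbook pair is counted but not reported here. Members and lists were chosen with earlier results of these data known. Alternatives to distance, window, width, strand assignment and start were also run. Analyses used Python 3.11.15, pandas 2.3.3, scipy 1.17.1, pysam 0.24.0 and samtools 1.23.1.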

Additional observations from a re-analysis of the deposited data

How the results depend on the processing

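No paired analysis was possible because there was 1 peak list per condition and no test between samples, and for the same reason no replicate could be left out in turn. Over 98 recomputed values, 79 stayed within the interval of the value reported or within 1.5 times of it. With midpoints within 500 bp, two-sided pairs fell to 6.22% untreated and 6.67% treated, and pairs with any side held to 40.6% and 42.9%. With peaks of at least 750 bp, two-sided pairs were 1.24% and 1.36%, pairs with any side held 18.7% and 19.6%, pairs with more sides in the treated list 51 and with fewer 44, and pairs two-sided in both lists 8. The excess of pair starts over other coding starts was then 2.97 and 2.10 percentage points. The treated list held 19 more sides than the untreated list, against 6 with starts at most 300 bp apart, 10 at most 500 bp apart, 41 with canonical transcript starts (975 pairs) and 9 with peaks of at least 750 bp. The excess was positive under each of the 10 alternatives. It stands beside a treated list that was longer as a whole, and the share of peaks at pairs was 4.28% untreated and 4.12% treated. Measured at the upstream edge of the peak instead of its midpoint, the median position was -115 bp in both lists, which is upstream of the start. One-sided pairs whose held side had the higher GC skew were 32.4%, and the share stayed below 50% with 250 bp and with 1000 bp downstream. No reads or heights were used here, so the depth of each library and the part it has in narrow peaks seen in 1 list were not tested.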
